A study of Homo sapiens with 2 samples.

Results

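The genes described here are the cadherins CDH3 and CDH6, 2 of the 373 gene symbols counted in a targeted single-cell RNA sequencing experiment on SUM159, a human cell line of triple-negative breast cancer. They were selected on their levels in these same libraries, in which they differ in opposite directions between treatment-naïve and chemoresistant cells. Their levels, shares of cells and folds are therefore given as a description with no test. The experiment used a breast cancer primer panel on the BD Rhapsody platform, and each of its 2 samples was 1 cartridge that held 3 populations marked with sample tags. The first cartridge held attached cells, grown as a monolayer, and the second held spheroids grown in Matrigel. In each culture the populations were wild-type SUM159 cells that were treatment-naïve, resistant to paclitaxel (a microtubule drug) or resistant to doxorubicin (a topoisomerase poison and DNA intercalator). Each resistant line was derived from attached SUM159 cells by long-term treatment with escalating doses, so each is 1 selected line of 1 parent. For the spheroid cartridge, the sample labels call the drug populations treated, while the series design calls them resistant. The tables were assigned to the populations by the population name that each carries, since the labels tie populations to tags and not to tables. Every population was measured once, and the cultures were run on different cartridges, so culture and cartridge cannot be told apart.

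Cadherins are calcium-dependent adhesion proteins of the cell surface that bind cadherins on the neighbouring cell and, through catenins, the actin cytoskeleton. CDH3 encodes P-cadherin, a classical cadherin known from the basal and myoepithelial layer of the breast and from basal-like breast tumours. CDH6 encodes K-cadherin, a type II cadherin known from kidney development and from renal and ovarian cancer. In RefSeq on GRCh38.p14, CDH3 lies on chromosome 16 from 68645310 to 68733771, next to CDH1, and CDH6 lies on chromosome 5 from 31193686 to 31329146. The annotation also places the antisense gene CDH3-AS1 over CDH3. The sources used here do not state whether the CDH3 primers lie in the overlap or whether the count was strand-aware.

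The tables held 30122 cells, 18233 attached and 11889 from spheroids. The populations held between 3751 and 7032 cells and between 8452574 and 29451390 unique molecular identifiers (UMIs, each standing for 1 captured transcript molecule). The median UMI count per cell was 3653 to 3814 in the attached populations and 1538.5 to 2340 in the spheroid populations, where 1218 to 1920 cells per population had fewer than 1000 UMIs, against at most 1 attached cell. The attached cell number was above the approximately 15000 cells that were pooled for that cartridge. No barcode occurred in more than 1 population of a cartridge, and 264 barcodes occurred on both cartridges. Doublets were not called. Of 12 lymphocyte and myeloid marker genes in the files, cells of these kinds not being part of the line, the median gene had a UMI in 0.227% to 0.424% of the cells of a population. CD14 was the highest in each population, at 9.09% to 43.4%, and the highest lymphocyte marker was at 1.75% to 5.82%.

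CDH3 was highest in the treatment-naïve cells of both cultures and lowest in the paclitaxel-resistant cells. Levels are given as CPM, the gene's UMIs per 1000000 UMIs of the population, with the exact 95% Poisson interval, which covers counting error only. In attached cells, CDH3 was at 130 CPM (125 to 135) in treatment-naïve cells, from 2782 UMIs. It was at 10.8 CPM (9.52 to 12.2) in paclitaxel-resistant cells, from 253 UMIs, and at 31.3 CPM (29.3 to 33.4) in doxorubicin-resistant cells, from 921 UMIs. The doxorubicin-resistant cells thus stood between the other populations, apart from both. In spheroids, CDH3 was at 233 CPM (225 to 243) in treatment-naïve cells, at 10.4 CPM (8.35 to 12.8) in paclitaxel-resistant cells and at 27.6 CPM (24.5 to 31.0) in doxorubicin-resistant cells. The order of the populations by drug was the same in both cultures. Over all 6 populations, the intervals of the attached and spheroid cells overlapped for paclitaxel resistance and for doxorubicin resistance, and all other neighbours in the order were apart.

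CDH6 had the opposite order within each culture, highest with paclitaxel resistance and lowest in treatment-naïve cells. In attached cells, CDH6 was at 119 CPM (115 to 124) in treatment-naïve cells, 729 CPM (718 to 740) in paclitaxel-resistant cells and 441 CPM (434 to 449) in doxorubicin-resistant cells. In spheroids, CDH6 was at 52.7 CPM (48.6 to 57.1) in treatment-naïve cells, 331 CPM (319 to 344) in paclitaxel-resistant cells and 141 CPM (134 to 148) in doxorubicin-resistant cells. No intervals overlapped among the 6 levels of CDH6, and the level was lower in the spheroids than in the attached cells of each drug history. The highest level was 22.4 times the lowest for CDH3 and 13.8 times the lowest for CDH6. The level of one gene is not set against that of the other here, since each is read through its own primers.

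**Figure D1:**
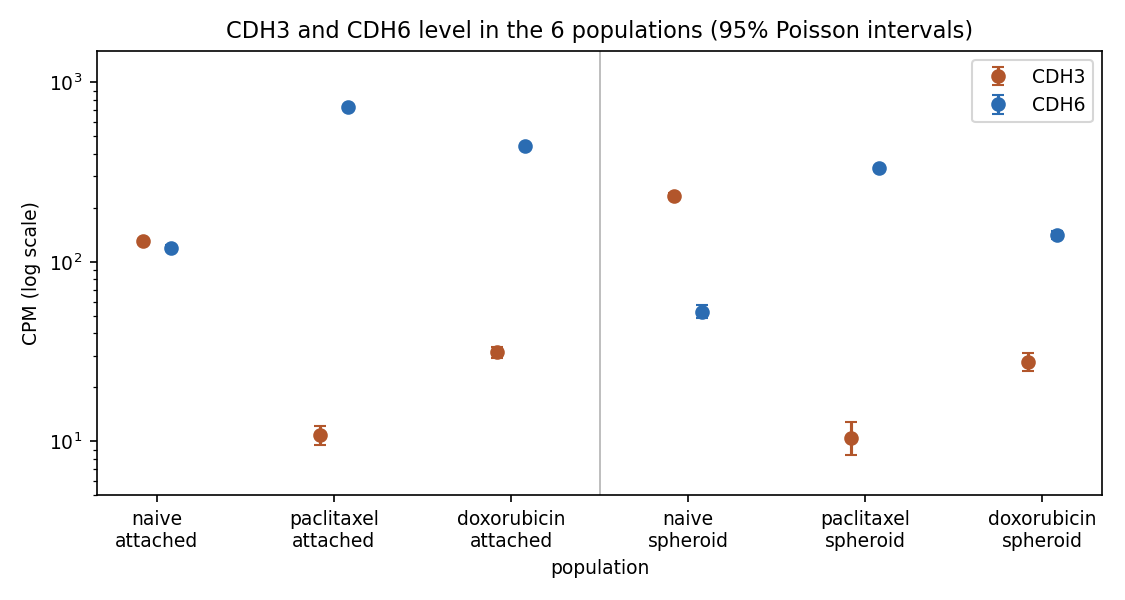
Level of CDH3 and CDH6 in CPM (log axis) in each of the 6 populations, attached on the left and spheroid on the right, as points with exact 95% Poisson intervals. CDH3 is at 130 and 233 CPM in the treatment-naïve populations and at 10.8 and 10.4 CPM with paclitaxel resistance, while CDH6 is at 119 and 52.7 CPM and at 729 and 331 CPM.

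The comparison of resistant with treatment-naïve cells asked which genes accompanied acquired resistance. A gene counted as measured in a comparison when at least 1 of the populations held 50 UMIs or more, and as higher or lower when its CPM differed by at least 2-fold. In attached cells, CDH3 was 12.0-fold lower (95% interval 10.6 to 13.7) with paclitaxel resistance, in a comparison in which 25.2% of 262 measured genes were lower. It was 4.15-fold lower (3.85 to 4.48) with doxorubicin resistance, in which 22.8% of 268 measured genes were lower. In spheroids, CDH3 was 22.4-fold lower (18.1 to 28.1) with paclitaxel resistance and 8.46-fold lower (7.49 to 9.58) with doxorubicin resistance, against 20.2% and 17.3% of measured genes. The size of the paclitaxel difference in spheroids depended on the cells that carried it. Its log2 fold was -4.49 over the summed UMIs, -2.54 as the mean of the CPM of each cell and -5.31 without the 1% of cells with the most CDH3 UMIs. Counted from the largest decrease, CDH3 was 16th and 34th in the attached comparisons and 12th of 252 and 18th of 260 in the spheroid comparisons.

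CDH6 was higher in each of the 4 comparisons. In attached cells, the increase was 6.11-fold (5.86 to 6.37) with paclitaxel resistance, where 20.2% of measured genes were higher, and 3.70-fold (3.54 to 3.86) with doxorubicin resistance, where 24.3% were higher. In spheroids, the increase was 6.28-fold (5.75 to 6.88) with paclitaxel resistance, where 9.92% were higher, and 2.68-fold (2.43 to 2.95) with doxorubicin resistance, where 16.5% were higher. As the mean of the CPM of each cell, the log2 fold with paclitaxel resistance in spheroids was 1.95 in place of 2.65. Counted from the largest increase, CDH6 was 14th and 33rd in attached cells and 7th and 28th in spheroids. The comparisons within a culture share the treatment-naïve population. Over all measured genes, the log2 folds had a median between -0.02 and 0.20 in these 4 comparisons.

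The resistant populations also differed from each other. With doxorubicin resistance, CDH3 was 2.89-fold higher (2.51 to 3.34) than with paclitaxel resistance in attached cells and 2.65-fold higher (2.08 to 3.40) in spheroids. CDH6 was 1.65-fold lower (1.61 to 1.69) in attached cells, under the 2-fold limit, and 2.35-fold lower (2.20 to 2.5) in spheroids. The difference of CDH6 in spheroids was under 2-fold with unscaled totals, at -0.91 on the log2 scale, and as the mean of the CPM of each cell, at -0.90. In these comparisons, 23.8% and 17.5% of measured genes differed by at least 2-fold in either direction. When the CPM was first computed in each cell and then averaged, the log2 fold of CDH3 in spheroids was 0.02 in place of 1.41, a mean to which barcodes of few UMIs contribute as much as deep cells.

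Between cultures, CDH6 was 2.26-fold lower (2.07 to 2.48) in treatment-naïve spheroids than in treatment-naïve attached cells, 2.20-fold lower (2.11 to 2.29) with paclitaxel resistance and 3.13-fold lower (2.97 to 3.30) with doxorubicin resistance. CDH3 was 1.80-fold higher (1.70 to 1.90) in treatment-naïve spheroids. In the resistant populations, the CDH3 intervals held 1, with a level 1.04-fold lower (from 1.34-fold lower to 1.23-fold higher) for paclitaxel and 1.13-fold lower (from 1.30-fold lower to 1.01-fold higher) for doxorubicin. Of the measured genes, 42.4%, 38.8% and 33.6% differed by at least 2-fold between cultures, and their median log2 fold was -0.33, -0.41 and -0.34. With median-of-ratios size factors, the log2 folds of CDH6 were -0.83 in treatment-naïve cells and -0.69 with paclitaxel resistance, both under 2-fold, and -1.37 with doxorubicin resistance. The difference in treatment-naïve cells was also under 2-fold, at -0.93, as the mean of the CPM of each cell. Relative to the medians of all measured genes, CDH6 was still lower and CDH3 was higher in each of the 3 populations. The sign of the CDH3 differences between cultures depended on the scaling: with median-of-ratios size factors they were 0.40 and 0.10 on the log2 scale in the resistant populations, and with unscaled totals the difference in treatment-naïve cells was -0.076.

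Among the cadherins and catenins, 5 of the 11 listed genes were in the files and 4 were measured. CDH1, which encodes the epithelial E-cadherin, had between 1 and 4 UMIs in any population. CDH13, which encodes the membrane-anchored T-cadherin, had 2331 to 4448 CPM and stayed within 2-fold of the treatment-naïve level. It was 1.22-fold lower with paclitaxel resistance and 1.81-fold lower with doxorubicin resistance in attached cells, 1.27-fold higher with paclitaxel resistance in spheroids, and 1.16-fold lower with doxorubicin resistance in spheroids. The increase in spheroids turned into a log2 fold of -0.079 when totals were left unscaled. CTNNB1, which encodes beta-catenin, the partner of classical cadherins and an effector of Wnt signalling, had 1754 to 3334 CPM and differed from treatment-naïve cells by 1.18-fold, 1.37-fold, 1.02-fold and 1.25-fold in the 4 comparisons. It was higher in each except with paclitaxel resistance in spheroids, where the interval of the fold held 1 and the log2 fold was -0.39 without scaling. Of the 4 measured members of this list, only CDH3 and CDH6, which were selected on these levels, were past 2-fold in the 4 comparisons.

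Other adhesion genes showed no common direction. Of 16 in the files, 14, 14, 13 and 14 were measured in the paclitaxel and doxorubicin comparisons of attached cells and then of spheroids. In that order, 5, 5, 1 and 3 were higher and 3, 2, 0 and 2 were lower, with median log2 folds of 0.36, -0.13, 0.06 and 0.18. The highest was in each case NCAM1, a neural adhesion molecule, which was 31.9-fold, 37.3-fold, 12.4-fold and 15.3-fold higher. Of the transcription factors of the epithelial-mesenchymal axis, 6 were in the files, and in each comparison 1 was higher (FOXA1, a luminal pioneer factor, by 2.18-fold to 6.39-fold) and 1 was lower (TP73, a p53 family member used as an epithelial marker in this line, by 2.74-fold to 5.18-fold). Of 9 Wnt and beta-catenin genes, 2, 1, 1 and 0 were higher and 0, 1, 0 and 0 were lower. DKK1, a secreted Wnt antagonist, was the highest in attached cells, at 4.58-fold and 11.2-fold. These counts stand against the percentages of all measured genes given above and show nothing particular to the lists.

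The share of cells with at least 1 UMI moved with the levels. For CDH3 in attached cells, it was 19.7% (exact binomial interval 18.6 to 20.8) in treatment-naïve cells, 3.82% (3.34 to 4.34) with paclitaxel resistance and 7.45% (6.85 to 8.09) with doxorubicin resistance. In spheroids, it was 15.3% (14.3 to 16.4), 1.95% (1.53 to 2.44) and 5.14% (4.46 to 5.89). For CDH6 in attached cells, it was 26.0% (24.8 to 27.2), 81.2% (80.2 to 82.2) and 65.0% (63.8 to 66.1), and in spheroids 8.67% (7.85 to 9.54), 30.6% (29.2 to 32.1) and 22.3% (21.0 to 23.7), in the same order of populations. CDH3 was thus a minority transcript everywhere, and over all deposited cells CDH6 was detected in most cells of the attached resistant populations only. Among paclitaxel-resistant spheroid cells of 1000 UMIs or more, CDH6 was detected in 50.3%. UMIs that strayed between the populations of a cartridge would add to the share of a population with little of a gene, and how many did was not tested.

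Since spheroid cells were shallower, each cell of 1000 UMIs or more was also thinned to 1000 UMIs by exact calculation. The CDH3 share was then 8.74%, 1.12% and 2.39% in attached cells, in that same order of populations, and 12.2%, 1.10% and 2.31% in spheroids. The CDH6 share was 9.79%, 46.7% and 31.0% in attached cells and 4.63%, 23.5% and 11.5% in spheroids. At equal depth, the resistant populations of the cultures were nearly level for CDH3, and the treatment-naïve share was higher in spheroids. Among the same cells of 1000 UMIs or more, it was also higher in spheroids before thinning, at 24.6% against 19.7%, so that the order over all cells, 15.3% against 19.7%, went with the inclusion of 1920 shallower spheroid cells. For CDH6, the lower share in spheroids was also seen at equal depth.

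**Figure D2:**
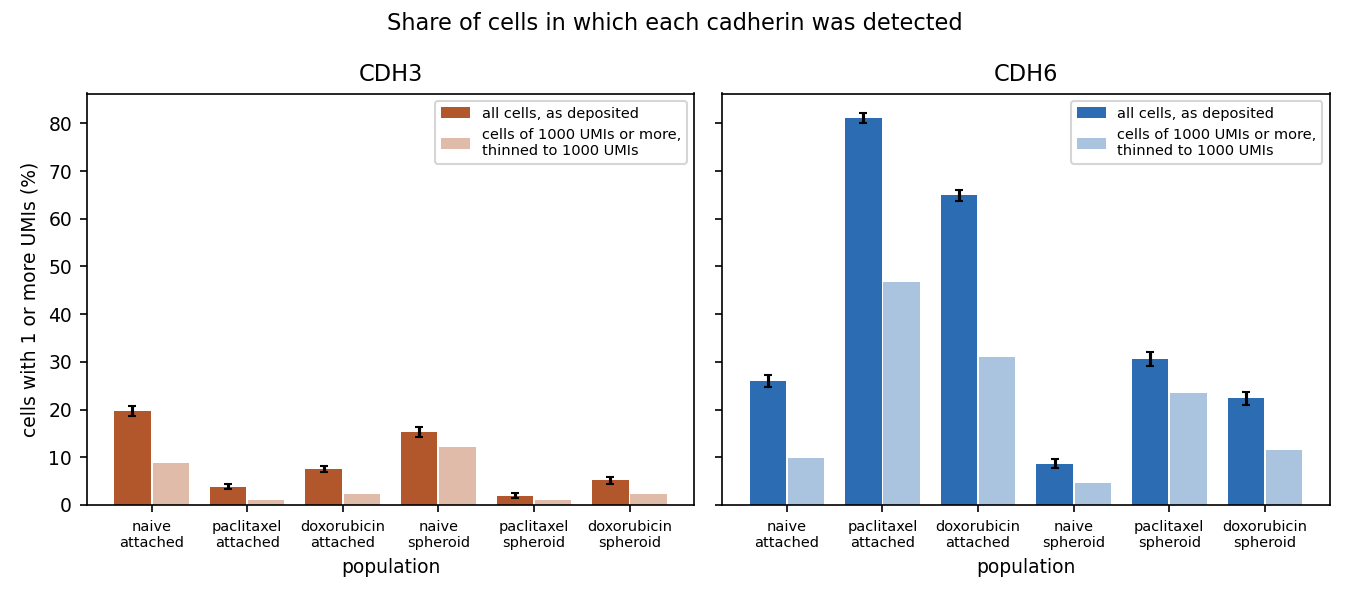
Percentage of cells with at least 1 UMI of CDH3 (left) and CDH6 (right) in each population, for all deposited cells (dark bars, with exact 95% binomial intervals) and for cells thinned to 1000 UMIs (light bars). CDH3 reaches 19.7% in treatment-naïve attached cells, while CDH6 reaches 81.2% in paclitaxel-resistant attached cells and 46.7% there after thinning.

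The cells that had CDH3 differed in how much they had. In treatment-naïve cells, a CDH3-positive cell held on average 2.66 UMIs in attached culture and 3.95 in spheroids, and the highest cells held 24 and 53. Cells with more than 5 CDH3 UMIs numbered 122 of 5305 attached and 140 of 4362 spheroid cells, and they held 40.1% and 60.3% of all CDH3 UMIs of their population. With paclitaxel resistance, the mean was 1.12 UMIs per positive attached cell, 206 of 225 positive cells held exactly 1 UMI, and only 1 cell exceeded 5 UMIs. In paclitaxel-resistant spheroids, no cell exceeded 5 UMIs (0 of 3751 cells, an exact upper bound of 0.0983%). Doxorubicin-resistant cells again stood between, with 1.76 and 1.5 UMIs per positive cell and 13 and 6 cells above 5 UMIs. Both the share of positive cells and the UMIs per positive cell were therefore lower in the resistant populations.

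CDH6 was held by many cells where it was high. In paclitaxel-resistant attached cells, a positive cell held on average 3.56 UMIs, 870 of 5896 cells held more than 5, and the 1% of cells with the most UMIs held 5.83% of all CDH6 UMIs. In treatment-naïve spheroids, where CDH6 was lowest, a positive cell held 1.58 UMIs, 9 cells exceeded 5, and the top 1% of cells held 33.7%. A low mean raises this share by counting alone. The Fano factor is the variance of the UMIs per cell over their mean. It was 3.06 and 4.19 in paclitaxel-resistant attached and spheroid cells, against 2.72 and 2.62 in treatment-naïve cells. With doxorubicin resistance it was higher than in treatment-naïve cells in attached culture, at 3.43, and lower in spheroids, at 2.48.

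Detection rose with cell depth, but not everywhere for CDH3. Between the shallowest and the deepest quintile of cells, the CDH6 share rose from 65.2% to 92.0% in paclitaxel-resistant attached cells and from 14.6% to 34.7% in treatment-naïve attached cells. The CDH3 share rose from 12.6% to 26.9% in treatment-naïve attached cells and from 3.77% to 14.8% in doxorubicin-resistant attached cells. In paclitaxel-resistant attached cells, the CDH3 shares of the 5 quintiles were 2.46%, 4.33%, 2.97%, 5.17% and 4.16%, with no steady rise. In spheroids, the deepest quintile of treatment-naïve cells had CDH3 in 39.0% of cells, against 2.13% in the deepest quintile of paclitaxel-resistant cells. The difference between populations was thus present among cells of like depth.

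**Figure D3:**
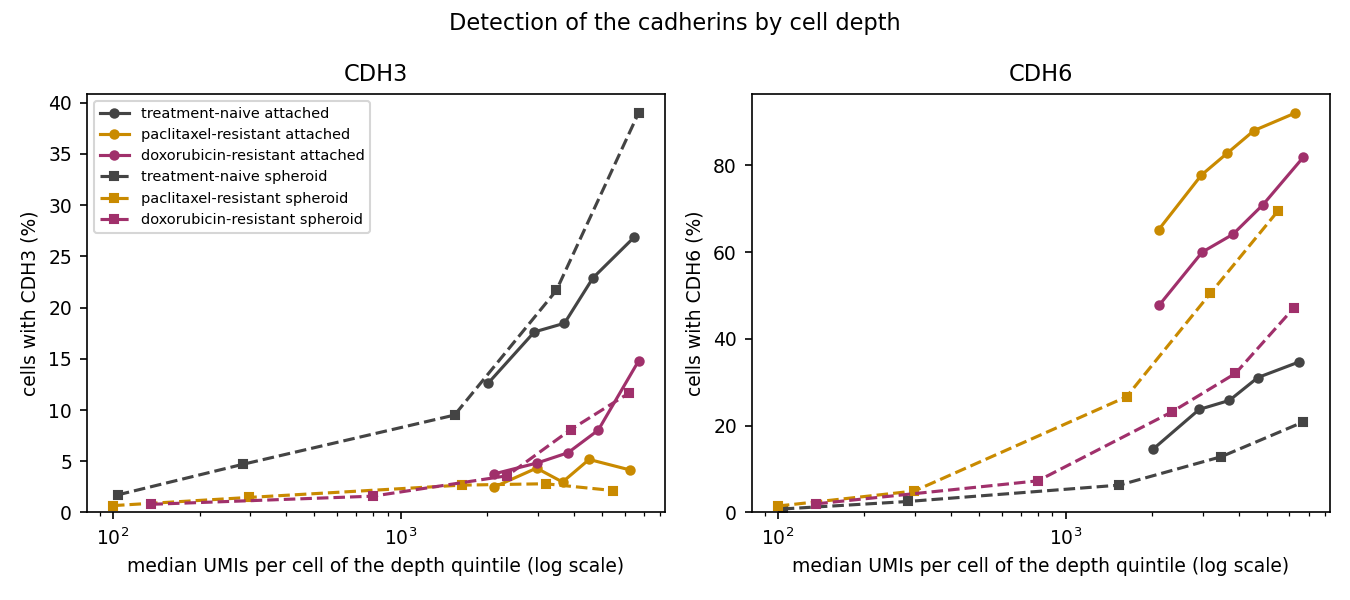
Percentage of cells with CDH3 (left) and CDH6 (right) in each quintile of cells by UMI total, against the median UMIs per cell of the quintile (log axis), with 1 line per population, circles for attached cells and squares for spheroids. CDH3 reaches 39.0% in the deepest treatment-naïve spheroid cells and stays at 2.13% in the deepest paclitaxel-resistant spheroid cells.

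Whether CDH3 and CDH6 were in the same or in different cells of a population was then counted. In treatment-naïve attached cells, 699 cells had CDH3 alone, 1033 had CDH6 alone, 346 had both and 3227 had neither. In treatment-naïve spheroids the numbers were 541, 251, 127 and 3443. In paclitaxel-resistant attached cells they were 41, 4602, 184 and 1069, and in paclitaxel-resistant spheroids 39, 1115, 34 and 2563. In doxorubicin-resistant attached cells they were 115, 4159, 409 and 2349, and in doxorubicin-resistant spheroids 114, 763, 80 and 2819. Cells with both genes were thus 6.52%, 3.12% and 5.82% of the attached cells that were treatment-naïve, resistant to paclitaxel and resistant to doxorubicin and 2.91%, 0.906% and 2.12% of the spheroid cells. Cells with CDH3 alone were 13.2% of treatment-naïve attached cells and 0.695% and 1.64% of the resistant attached cells.

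**Figure D4:**
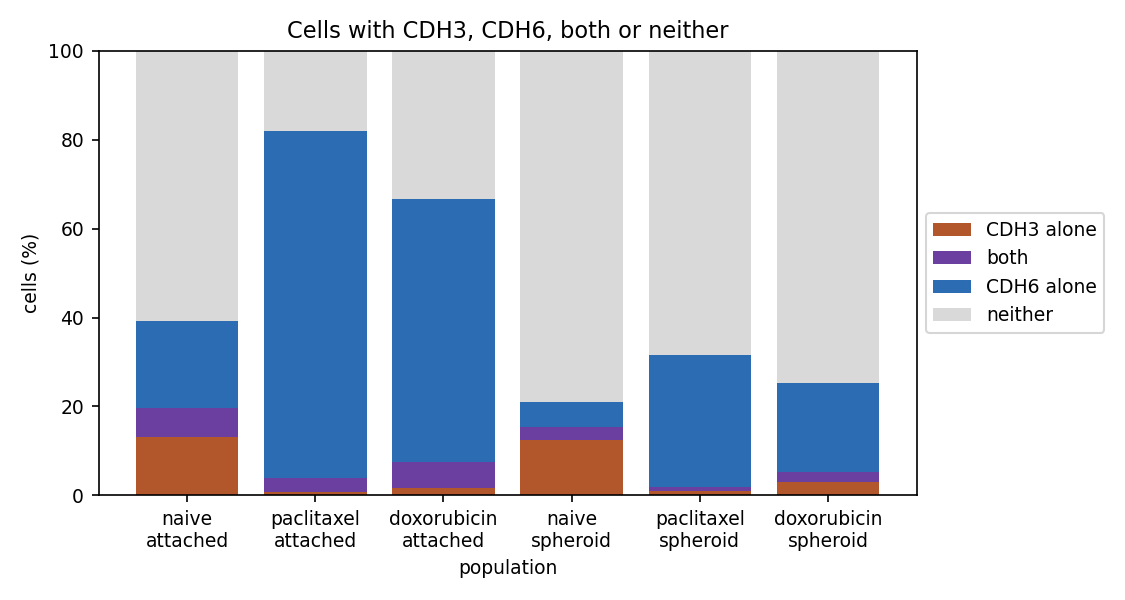
Percentage of the cells of each population with CDH3 alone, both genes, CDH6 alone or neither, as stacked bars that sum to 100. Cells with CDH3 alone make up 13.2% of treatment-naïve attached cells and 0.695% of paclitaxel-resistant attached cells, in which 78.1% have CDH6 alone.

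Deep cells detect more of every gene, so the number of cells with both was compared with the number expected if detection of one gene were independent of the other among cells of the same decile of UMI total. A ratio of 1 is independence, and the interval is the Poisson interval of the observed number. The ratio was 1.19 (1.07 to 1.32) in treatment-naïve attached cells and 1.23 (1.03 to 1.47) in treatment-naïve spheroids. It was 0.985 (0.848 to 1.14) in paclitaxel-resistant attached cells, 1.24 (0.861 to 1.74) in paclitaxel-resistant spheroids, 1.10 (0.994 to 1.21) in doxorubicin-resistant attached cells and 1.16 (0.919 to 1.44) in doxorubicin-resistant spheroids. The genes were therefore not found in separate cells in any population. In the treatment-naïve cells of both cultures, where CDH3 was highest and CDH6 lowest, they were together slightly more often than expected within the depth deciles, with intervals that cover counting error only. Without the depth deciles, the ratios were 1.27, 1.01 and 1.20 in attached cells and 2.19, 1.52 and 1.85 in spheroids, the range of depths being wider there. When 2 or more UMIs of each gene were required, the ratio was 1.14 in treatment-naïve attached cells (72 cells with both), 0.939 in paclitaxel-resistant attached cells (11 cells) and 1.33 in doxorubicin-resistant attached cells (134 cells). In spheroids it was 1.38 in treatment-naïve cells (31 cells), 2.18 with paclitaxel resistance (6 cells) and 1.63 with doxorubicin resistance (14 cells), numbers too small to place these ratios.

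Seen from CDH3, 33.1% (30.3 to 36.1) of CDH3-positive treatment-naïve attached cells had CDH6, against 24.2% (23.0 to 25.6) of CDH3-negative cells, with median depths of 4164 and 3619 UMIs. In doxorubicin-resistant attached cells the shares were 78.1% and 63.9%, with median depths of 4985 and 3738. In paclitaxel-resistant attached cells they were 81.8% and 81.2%, with median depths of 4053 and 3637. In spheroids the shares were 19.0% and 6.79% in treatment-naïve, 46.6% and 30.3% in paclitaxel-resistant and 41.2% and 21.3% in doxorubicin-resistant cells, where depth differed far more (in treatment-naïve spheroids, 4791 UMIs against 985). By level, CDH6 in treatment-naïve attached cells was at 112 CPM (107 to 117) in cells with no CDH3, 152 CPM (140 to 164) in cells with 1 to 5 CDH3 UMIs and 118 CPM (93.4 to 148) in the 122 cells above 5. In doxorubicin-resistant attached cells these levels were 419 CPM (412 to 427), 654 CPM (624 to 685) and, in the 13 cells above 5, 574 CPM (437 to 740). The cells with the most CDH3 were not those with the least CDH6 in either population. The single paclitaxel-resistant attached cell above 5 held no CDH6 UMI.

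The other genes of the CDH3-positive cells were described by the UMIs they held over the number expected from CDH3-negative cells of the same depth decile. In treatment-naïve attached cells the 6 other basal markers measured were above expectation. KRT5 was at 6.78 times the expected number, KRT14 at 2.31, SFN at 1.97, KRT17 at 1.69, ITGA6 at 1.41 and TP73 at 1.32. KRT5, KRT14 and KRT17 are keratins of basal cells, SFN encodes the epithelial 14-3-3 sigma and ITGA6 an integrin of the basal surface. KRT14 was present in 77.9% of CDH3-positive and 54.8% of CDH3-negative cells, while KRT5 was present in only 2.01% and 0.422%, and 46.6% of its UMIs in positive cells came from 1 cell. Of the mesenchymal markers, COL3A1 was at 0.190, S100A4 at 0.429, PDGFRB at 0.440, COL1A1 at 0.578 and FN1 at 0.824, while VIM was at 1.14. The proteoglycan gene DCN was the lowest of 217 genes, at 0.151, and S100A8 was the third highest, at 2.20. CDH3-positive cells of the treatment-naïve monolayer thus held more basal and less collagen transcript than their neighbours.

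In treatment-naïve spheroids the basal side of this pattern was larger and the collagen side was absent. KRT5 was at 10.8 times the expected number, KRT14 at 5.01, KRT17 at 3.01, TP73 at 2.93, SFN at 2.30 and ITGA6 at 1.90, with KRT14 in 59.1% of CDH3-positive and 21.0% of CDH3-negative cells. Of the mesenchymal markers, FN1 was at 1.12, COL3A1 at 1.10, COL1A1 at 0.970 and VIM at 0.947, while PDGFRB was at 0.802 and S100A4 at 0.544. Also among the 3 highest were HLA-DRA, an antigen presentation gene, at 9.46, and the prostaglandin synthase gene PTGDS at 7.28, in 22 and 16 of the 668 positive cells. Of their UMIs in positive cells, 32.5% and 44.9% came from 1 cell each. The 3 lowest were CD14 at 0.288, TNF at 0.347 and GPNMB at 0.422.

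In doxorubicin-resistant cells a small CDH3-positive group carried the basal pattern. In attached cells the 524 CDH3-positive cells had KRT14 at 8.46 times the expected number, TP73 at 2.60, SFN at 1.95, ITGA6 at 1.88 and KRT17 at 1.27. COL3A1 was at 0.366, PDGFRB at 0.421 and COL1A1 at 0.472. CD74 and HLA-DRB1, genes of antigen presentation, were at 9.61 and 8.05, in 18.3% and 13.5% of positive cells against 4.53% and 2.23% of negative cells. The lowest 3 were CCNA1 at 0.310, STK32B at 0.341 and IL6 at 0.349. KRT14, CD74 and HLA-DRB1 rested partly on few cells, with 15.7%, 24.8% and 17.0% of their UMIs in the positive group from 1 cell each. TP73, in contrast, was present in 69.3% of positive and 34.8% of negative cells. In spheroids, KRT5 was at 24.6, KRT14 at 12.2 and CD74 at 9.07, with 39.1%, 48.7% and 41.7% of these UMIs from 1 cell each. TP73 was at 1.67, SFN at 1.65, KRT17 at 1.27 and ITGA6 at 1.19. Of the mesenchymal markers, COL3A1 was at 1.22 and S100A4 at 1.03, while PDGFRB was at 0.812, FN1 at 0.834, COL1A1 at 0.847 and VIM at 0.966, and TNF at 0.523, C4A at 0.650 and ITGAE at 0.728 were lowest.

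In paclitaxel-resistant attached cells the few CDH3-positive cells did not carry the basal pattern, and in spheroids too few basal markers were measured to say. In attached cells SFN was at 1.09, KRT17 at 1.03, ITGA6 at 0.976 and TP73 at 0.913, and KRT14 and KRT5 were too low to be measured there. Only 1 of 187 genes was at 1.5 or more, GPNMB at 1.99, and it was present in 10.7% of positive and 10.6% of negative cells. COL3A1 and PTGS2 followed at 1.48 each, and CCL5 at 0.524, CENPF at 0.732 and NDC80 at 0.749 were lowest. In spheroids, DCN was at 2.48, VCAM1 at 2.29, IGFBP7 at 1.99 and COL3A1 at 1.66, with 42.3% of the DCN UMIs from 1 of the 73 positive cells. Only 2 basal markers were measured there, KRT17 at 1.16 and ITGA6 at 0.830, while TP73, SFN, KRT14 and KRT5 were too low. ABCG2 at 0.555, PVR at 0.575 and CDC6 at 0.597 were lowest. With 225 and 73 positive cells, most of them holding 1 UMI, the origin of these CDH3 UMIs was not tested.

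**Figure D5:**
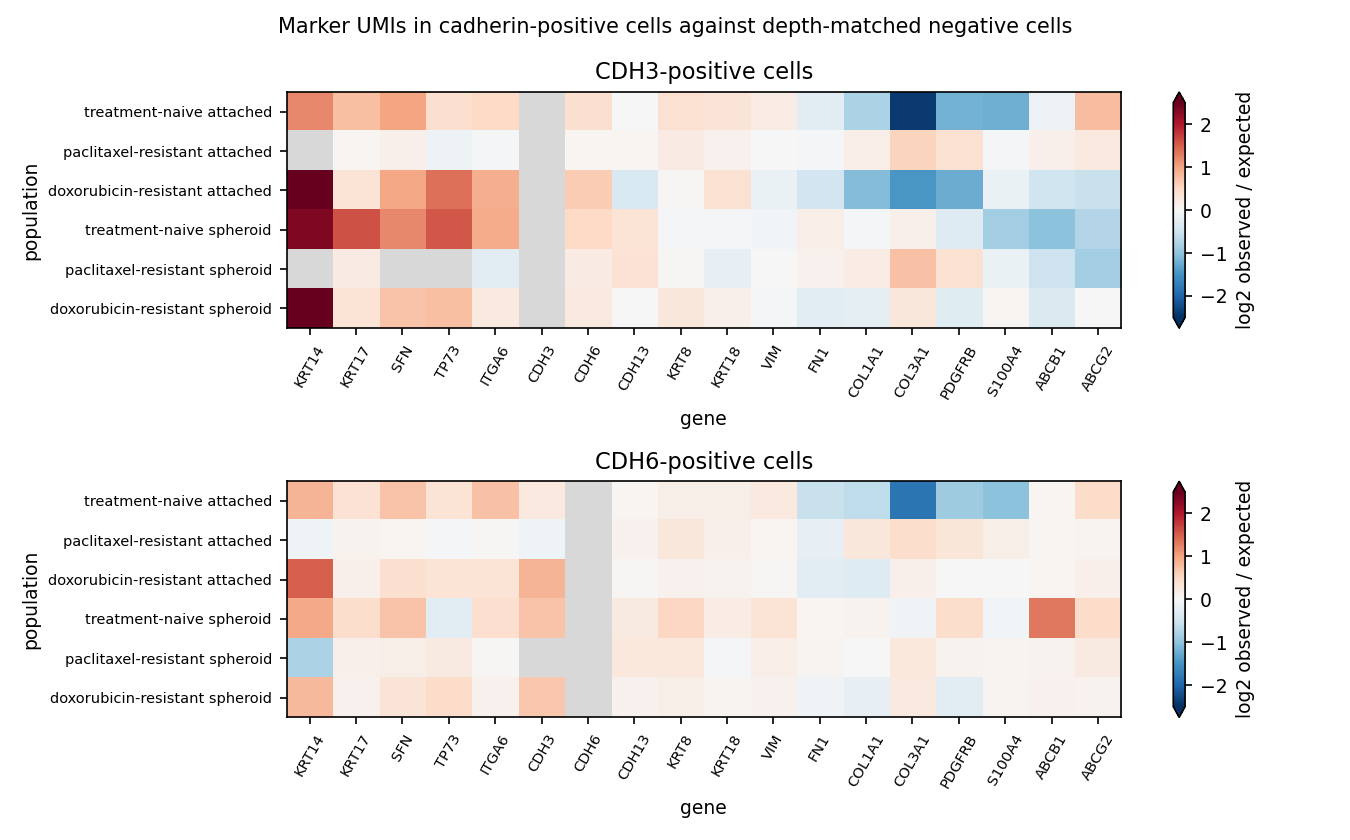
Log2 of the observed over the expected UMIs of marker genes (columns) in CDH3-positive cells (top) and CDH6-positive cells (bottom) of each population (rows), expected from negative cells of the same depth decile. Red is more and blue is less than expected, the colour scale ends at 2.5 on either side, and grey marks the gene itself or a gene under 50 UMIs. KRT14 is red in CDH3-positive treatment-naïve and doxorubicin-resistant rows, at 2.31 to 12.2 times the expected number.

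CDH6-positive cells shared much of this pattern in treatment-naïve attached cells. There KRT14 was at 1.80 times the expected number, ITGA6 at 1.66, SFN at 1.65, KRT17 at 1.29, TP73 at 1.27 and CDH3 itself at 1.19. DCN was at 0.207, CCL3 at 0.279, COL3A1 at 0.281, S100A4 at 0.492, PDGFRB at 0.541, COL1A1 at 0.648 and FN1 at 0.679. The mesenchymal marker VIM went the other way, at 1.18. The highest were CD3D at 2.28, AREG, an EGF receptor ligand, at 1.93 and CD86 at 1.93. Only AREG was common, in 69.3% of CDH6-positive and 48.8% of CDH6-negative cells. CDH6, which was lowest in this population among the attached ones, thus lay here on the basal, low-collagen side together with CDH3.

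In paclitaxel-resistant attached cells, where CDH6 was in 81.2% of cells, the pattern was different. COL3A1 was at 1.36, PDGFRB at 1.24, COL1A1 at 1.22, S100A4 at 1.10 and VIM at 1.03 in CDH6-positive cells, but FN1 was at 0.871. Of the basal markers, KRT17 was at 1.07, SFN at 1.03, ITGA6 at 1.02, TP73 at 0.965 and KRT14 at 0.931. CD74 at 3.33, TNFRSF14 at 3.05 and FYB at 2.69 were highest, each in under 4% of positive cells, and S100A9 at 0.207, CXCL14 at 0.245 and GPNMB at 0.312 were lowest. Of the S100A9 and CXCL14 UMIs of negative cells, 31.4% and 26.2% came from 1 cell each. In doxorubicin-resistant attached cells, HLA-DRB1 at 3.44, HLA-DQB1 at 3.16 and KRT14 at 2.82 were highest, and CDH3 was at 1.81, with SFN, ITGA6 and TP73 at 1.33, 1.27 and 1.26. FN1 at 0.827 and COL1A1 at 0.797 were below expectation, COL3A1 was at 1.09, and FCGR3A at 0.227, CCL5 at 0.25 and CCL3 at 0.296 were lowest. FCGR3A was in 4 positive cells, and 69.2% of its UMIs in positive and 54.5% in negative cells came from 1 cell each.

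In spheroids, CDH6-positive treatment-naïve cells had GPNMB at 4.07, ESM1 at 3.62, AREG at 2.87 and ABCB1 at 2.48, with KRT14 at 1.94, KRT5 at 1.92, CDH3 at 1.64 and TP73 at 0.834. The low collagen of the attached cells was not seen there. PDGFRB was at 1.36, VIM at 1.27, COL1A1 at 1.07 and FN1 at 1.03, while S100A4 was at 0.952 and COL3A1 at 0.940. Of the AREG and KRT5 UMIs of positive cells, 43.7% and 34.6% came from 1 cell each. CCL3 at 0.0885, TNF at 0.483 and S100A9 at 0.525 were lowest. In paclitaxel-resistant spheroids the ratios were closer to 1. SLIT2 at 1.73, CDKN2A at 1.51 and FOXA1 at 1.46 were highest. CDKN2A was in only 10 of 1149 positive cells, with 39.3% of its UMIs there from 1 cell. COL3A1 was at 1.20, and of the basal markers TP73 was at 1.17, SFN at 1.10, KRT17 at 1.09, ITGA6 at 1.02 and KRT14 at 0.578, where 29.0% of the KRT14 UMIs of negative cells came from 1 cell. CCL5 at 0.164, C1QA at 0.313 and CXCL12 at 0.354 were lowest. In doxorubicin-resistant spheroids, GZMA at 3.90, IGFBP3 at 2.07 and IGFBP5 at 1.80 were highest, with 50% and 67.9% of the UMIs of the first and second from 1 cell each. CDH3 was at 1.60 and KRT14 at 1.75, while KRT5 was at 0.511, with 34.1% of its UMIs in negative cells from 1 cell. Of the mesenchymal markers, COL3A1 was at 1.18, VIM at 1.07 and S100A4 at 1.05, while FN1 was at 0.944, COL1A1 at 0.868 and PDGFRB at 0.819. CCL4 at 0.0452, FCGR3A at 0.117 and CCL5 at 0.509 were lowest, but 77.3% of the FCGR3A UMIs and 33.6% of the CCL4 UMIs of negative cells came from 1 cell each. CDH3 was thus at or above 1.19 times its expected number in the CDH6-positive cells of every treatment-naïve and doxorubicin-resistant population, at 0.928 in paclitaxel-resistant attached cells, and too low to be measured in paclitaxel-resistant spheroids.

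ABCB1 encodes a drug efflux pump that exports both drugs. It had a UMI in 36.7% of treatment-naïve, 93.1% of paclitaxel-resistant and 88.4% of doxorubicin-resistant attached cells, and in 18.7%, 60.1% and 67.2% of spheroid cells in the same order. In treatment-naïve spheroids, 89 of 4362 cells held more than 5 ABCB1 UMIs. CDH6 was at 281 CPM (229 to 341) in these cells and at 45.4 CPM (41.0 to 50.2) in the 3545 cells with no ABCB1 UMI, and these 89 cells held 17.3% of the CDH6 UMIs of the population. CDH3 went the other way, with 68.2 CPM (44.1 to 101) in the ABCB1-high cells and 229 CPM (219 to 240) in the cells without ABCB1. The relation was not graded. In the 728 cells with 1 to 5 ABCB1 UMIs, CDH6 was at 43.7 CPM (35.7 to 52.9) and CDH3 at 273 CPM (253 to 295). The CDH6 level in these 89 cells was thus between those of the resistant spheroid populations, and the CDH3 level was between the treatment-naïve and the resistant levels. Whether they are resistant cells on the same cartridge that carry the wrong tag was not tested. Among treatment-naïve attached cells, 34 held more than 5 ABCB1 UMIs, with CDH6 at 129 CPM (80.1 to 198) and CDH3 at 98.6 CPM (56.4 to 160), and both intervals held the level of the population.

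Within the attached resistant populations, the cadherin levels differed little between cells with no ABCB1 UMI and the pooled cells with 1 or more. In paclitaxel-resistant attached cells, CDH6 was at 701 CPM (657 to 746) in the 409 cells without an ABCB1 UMI and at 731 CPM (719 to 742) in the others, and CDH3 was at 14.5 CPM (8.83 to 22.3) and 10.6 CPM (9.27 to 12.0). In doxorubicin-resistant attached cells, CDH6 was at 408 CPM (386 to 432) and 445 CPM (437 to 453), and CDH3 at 29.1 CPM (23.3 to 35.8) and 31.5 CPM (29.4 to 33.7). The pooled cells were not alike there, with CDH3 at 41.3 CPM (36.4 to 46.6) with 1 to 5 ABCB1 UMIs and 28.4 CPM (26.2 to 30.9) with more than 5. ABCB1 was at 0.712 times the expected number in the CDH3-positive cells of that population. In paclitaxel-resistant spheroids, CDH3 was at 19.6 CPM (12.5 to 29.1) without ABCB1 and at 8.86 CPM (6.82 to 11.3) with it, and CDH6 at 250 CPM (222 to 279) and 345 CPM (332 to 359). There the cells without ABCB1 had a median of 209 UMIs, against 2963 UMIs. Without the resistant cells that had no ABCB1 UMI and the treatment-naïve cells that had more than 5, the log2 fold of CDH6 in spheroids was 2.94 in place of 2.65 for paclitaxel and 1.67 in place of 1.42 for doxorubicin.

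The genes whose levels over the 6 populations ran most like each cadherin were ranked among 276 by the root mean square difference of log2 (CPM + 1) after centring. For CDH3 the nearest were CD86 at 0.59, TNFSF13 at 0.74, RUNX3 at 0.75, CCL5 at 0.75 and TNFSF13B at 0.83, against a median of 1.79 over all genes. Apart from CCL5, a chemokine gene at 851 to 15651 CPM, these were low genes, CD86 being at or below 7.47 CPM. For CDH6, near genes were BCL2, an inhibitor of apoptosis, at 0.61, THBS1, a matrix glycoprotein gene, at 0.65, PTPRC at 0.67 and SLIT2 at 0.72, against a median of 1.36. The distance between the 2 cadherins themselves was fixed by their selection and is not read here.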

How the data were processed

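The 6 tables hold counts of UMIs per gene and cell as the authors deposited them. Per the study's methods, cell labels and molecular identifiers were read and molecules were adjusted by RSEC, a correction for sequencing errors in the identifiers. The submitters' processing notes name hg38, and the versions of the tools are not given in the sources used here. The cell filter of the study was not applied. All deposited cells were used, no clusters were formed, and 0 columns of samples were left unused. CPM was the summed UMIs of a gene over those of the population, multiplied by 1000000. Intervals at 95% were exact Poisson, Clopper-Pearson or conditional binomial intervals, which take cells of 1 population as independent and cover counting error only. With 1 library per population there was no test. Thinning to 1000 UMIs used the hypergeometric distribution, and co-detection used 10 depth bins from totals without CDH3 and CDH6. Genes named were both members, the cadherin and catenin list, the basal and mesenchymal markers, the 3 highest and lowest ratios in positive cells, the 5 nearest patterns and the extremes of other lists, of which 1 gene is not reported here. Members and lists were chosen with earlier results of these data known. The code was tested on simulated data and run with Python 3.11.15, numpy 2.4.6, scipy 1.17.1 and pandas 2.3.3. No sequences are given, and the luminal markers served only in the plot of marker ratios.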

Additional observations from a re-analysis of the deposited data

Results flagged for a closer look

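CDH13, the gene of T-cadherin, differed in direction between the cultures. With paclitaxel resistance its log2 fold over treatment-naïve cells was -0.29 in attached cells and 0.34 in spheroids. Each culture had 1 library per population, so that the difference was not tested. It was under 2-fold in both cultures, and in spheroids the direction turned, to -0.079, when totals were not scaled.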

How the results depend on the processing

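No paired analysis was possible because each sample was the only one of its group. For the folds of CDH3 and CDH6 over treatment-naïve cells, 6 alternatives were planned, and leaving out the barcodes found on both cartridges was added after the data were seen, as were other scalings for CDH13 and CTNNB1. The 8 folds kept their direction and stayed at 2-fold or more under each. In the order CDH3 then CDH6, the log2 folds that moved beyond their counting intervals were as follows. Without the 1% of cells with the most UMIs of the gene, they were -3.81 and 2.79 for paclitaxel and -2.32 and 2.03 for doxorubicin in attached cells, and -5.31 and 3.00 for paclitaxel and -3.39 and 1.76 for doxorubicin in spheroids. Without scaling, CDH3 was at -1.59 for doxorubicin in attached cells and -4.91 for paclitaxel in spheroids, and CDH6 at 2.74, 2.35 and 2.23 for paclitaxel and doxorubicin in attached cells and paclitaxel in spheroids. As the mean of the CPM of each cell, CDH3 was at -2.23 for doxorubicin in attached cells and at -2.54 and -2.52 in spheroids, and CDH6 at 1.95 and 1.05 in spheroids. With median-of-ratios size factors, CDH6 was at 2.55, 1.78 and 1.24 for paclitaxel and doxorubicin in attached cells and doxorubicin in spheroids. Without cells whose ABCB1 went against their population, CDH6 was at 2.94 and 1.67 in spheroids. Between cultures, the log2 fold of CDH3 reversed to -0.076 in treatment-naïve cells without scaling, to 0.40 (size factors) and 1.42 (mean per cell) with paclitaxel resistance, and to 0.10 and 0.25 with doxorubicin resistance. Without scaling, CDH13 and CTNNB1 with paclitaxel resistance in spheroids reversed to -0.079 and -0.39. Apart from the unscaled totals and the means per cell, which weight populations and shallow cells differently by construction, the cause was not tested. The ratio of cells with both genes moved to 1.33, 2.18 and 1.63 with 2 UMIs of each gene and to 1.25 in doxorubicin-resistant attached cells after thinning. It stayed within its interval with 20 depth bins, with cells of at least 1000 UMIs, without the deepest 1% of cells and without the barcodes on both cartridges. With no minimum of UMIs, 53 genes were higher and 79 lower with paclitaxel resistance in spheroids, and 68 and 76 with doxorubicin resistance, in place of 25, 51, 43 and 45. CDH6 lost its 2-fold difference between cultures with size factors in treatment-naïve and paclitaxel-resistant cells (-0.83 and -0.69) and as the mean per cell in treatment-naïve cells (-0.93), and between the resistant spheroids without scaling (-0.91) and as the mean per cell (-0.90). CDH3 in the paclitaxel-resistant spheroids rests on 88 UMIs, which limits its precision.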
